A study of Mus musculus with 11 samples.

Results

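A set of 8 genes by which supporting cells of the cochlea are recognised, *Sox2*, *Prox1*, *Hes1*, *Lfng*, *Fgfr3*, *Ngfr*, *Lgr5* and *Epyc*, was followed in RNA-Seq libraries of whole cochleae with and without ATF6. They were taken by gene symbol. All 8 of them are among the 18667 genes listed and the 16169 genes tested, which averaged at least 0.1 FPKM (a level corrected for the length of the transcript and the size of the library). The libraries came from individual cochleae of 2-month-old mice on the C57BL/6J background, which carries the *Cdh23* allele of age-related hearing loss in both genotypes. They comprise 5 *Atf6*+/+ libraries and 6 *Atf6*-/- libraries. The mutant allele holds a premature stop codon in every cell of the body and was reported to leave no ATF6 protein, so that no cell type was targeted.

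Supporting cells are the nonsensory cells that surround the hair cells of the organ of Corti. They include pillar cells, Deiters' cells, inner phalangeal cells and Hensen's cells, and they hold the hair cells in place, clear potassium and glutamate around them and form the scar that closes the epithelium when a hair cell dies. During development both cell types arise from a common progenitor, with Notch signaling from the nascent hair cell directing its neighbours to the supporting cell fate and FGF signaling directing pillar cell formation. In the mature cochlea these cells are a small share of the tissue. Several of the 8 genes are also used elsewhere, such as *Epyc* in cartilage and *Prox1* in lymphatic endothelium. *Ngfr* is also used in glia and neurons, and *Hes1* in many dividing and resting cells. A level of any of the 8 thus cannot be assigned to supporting cells alone. In whole tissue, fewer cells of a type and less RNA per cell cannot be told apart.

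Of the 8 genes, *Fgfr3* and *Epyc* were higher in *Atf6*-/- cochleae before adjustment over genes (limma, p up to 0.05, absolute log2 fold change over 0.05), a rule met by 9.85% of all genes tested. None of the 8 had an adjusted p under 0.05, which 0.068% of all genes tested reached. *Fgfr3* was 1.51-fold higher, with every *Atf6*-/- library above every *Atf6*+/+ library, and *Epyc* was 1.82-fold higher with overlap between the genotypes. These folds are on the scale of log2(FPKM + 0.1), which slightly understates differences of low genes. The other 6 genes had fold changes between 0.959 and 1.11, and all of their 95% confidence intervals include no difference. The *Atf6*+/+ libraries with the lowest *Fgfr3* and *Epyc*, replicates 3 and 4, also had the highest levels of bone marrow genes. They had the lowest mean log2 values of any library for hair cell genes (2.25 and 2.26) and for other supporting cell genes (3.79 and 3.78). Without them the difference of *Fgfr3* was smaller and that of *Epyc* no longer met the unadjusted rule.

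Sequence upstream of the genes is shown for *Fgfr3* and *Epyc*, which differed most between the genotypes, and for *Sox2* and *Lfng*, whose levels ran most closely together from library to library. Each is the 250 bases before a RefSeq transcript start in GRCm38.p6, a build older than the GRCm39 of the deposited values, all on the plus strand and read 5' to 3'. They lie at chr5:33721474-33721723 (*Fgfr3*), chr10:97643818-97644067 (*Epyc*), chr3:34649745-34649994 (*Sox2*) and chr5:140607091-140607340 (*Lfng*). Capitals mark a match on either strand to one of 6 motifs, and neighbouring matches can share bases.
Fgfr3: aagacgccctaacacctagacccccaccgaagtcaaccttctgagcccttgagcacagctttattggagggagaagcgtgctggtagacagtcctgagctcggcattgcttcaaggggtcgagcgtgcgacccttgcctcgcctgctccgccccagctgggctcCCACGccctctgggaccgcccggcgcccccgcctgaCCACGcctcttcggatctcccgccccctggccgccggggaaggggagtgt
Epyc: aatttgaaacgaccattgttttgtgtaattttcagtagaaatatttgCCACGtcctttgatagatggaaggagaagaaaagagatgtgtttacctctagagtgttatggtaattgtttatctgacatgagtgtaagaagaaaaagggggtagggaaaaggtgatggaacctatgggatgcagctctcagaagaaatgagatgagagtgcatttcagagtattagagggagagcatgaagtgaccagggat
Sox2: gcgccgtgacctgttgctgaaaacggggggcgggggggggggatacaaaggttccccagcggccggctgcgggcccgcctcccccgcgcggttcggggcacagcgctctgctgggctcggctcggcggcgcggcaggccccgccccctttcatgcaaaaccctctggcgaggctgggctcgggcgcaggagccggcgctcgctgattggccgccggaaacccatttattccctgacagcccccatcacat
Lfng: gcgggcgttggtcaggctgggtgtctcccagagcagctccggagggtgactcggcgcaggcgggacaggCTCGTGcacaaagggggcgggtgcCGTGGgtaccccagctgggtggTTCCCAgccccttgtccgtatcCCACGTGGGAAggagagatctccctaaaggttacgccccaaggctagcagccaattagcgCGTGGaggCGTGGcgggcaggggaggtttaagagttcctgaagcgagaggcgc

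The motifs were the core bound by RBPJ, the DNA-binding partner of Notch (TGGGAA), the N-box (CACNAG) and E-box (CACGTG) bound by HES and HEY repressors, a core bound by ATF6 (TGACGTGG), the ER stress element, and the stretch of that element contacted by ATF6 (CCACG). They were searched on both strands in the 300-base windows that run on for 50 bases past the start, and 6 of the 8 genes had such a window in the RefSeq table. The ATF6 core was in 0 of their 9 windows and in 0.676% of 32851 windows of all genes. The ER stress element was likewise in 0 of 9, and in 0.119% of all windows. The stretch CCACG is short and was in 6 of the 9 windows and in 32.8% of all windows. It matched at 3 positions in the first window of *Fgfr3* (the last of them past the start and not shown), at 1 position in the first window of *Epyc*, and at 5 positions in that of *Lfng*, where a pair of matches falls on the same CCACGTGG. The second windows of *Prox1* and *Fgfr3* and the window of *Ngfr* had 1 match each. The RBPJ core was in 2 of the 9 windows (25.6% of all windows), those of *Lfng*, with 2 matches, and the second of *Prox1*. The N-box was in 3 of 9 (42.5% of all windows), with 1 match in *Lfng*, and the E-box in 1 of 9 (7.15%), that of *Lfng*. One RBPJ core and the E-box of *Lfng* share bases with CCACG. The *Sox2* window matched none of the 6 motifs. No window was at hand for *Lgr5* and *Hes1*, and these matches describe letters, not binding.

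Among the transcription factors, *Sox2* (NCBI gene 20674) specifies the sensory progenitors and is kept on in mature supporting cells. Its level was 17.39, 14.13, 9.35, 11.63 and 12.98 FPKM in *Atf6*+/+ replicates 1 to 5, and ran from 11.47 through a median of 14.25 to 15.84 FPKM in the 6 *Atf6*-/- libraries. The *Atf6*+/+ values spanned the *Atf6*-/- values on both sides, with replicate 1 the highest and replicate 3 the lowest of all 11. The means were 13.1 ± 2.99 FPKM (SD, n = 5) and 14.1 ± 1.56 FPKM (SD, n = 6), which gives a log2 fold change of 0.13 (standard error, SE, 0.135, adjusted p = 0.762, limma) and a fold change of 1.09 with a 95% confidence interval from 0.891 to 1.34. Without *Atf6*+/+ replicate 3 the log2 fold change was 0.014.

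*Prox1* (NCBI gene 19130) encodes a homeobox factor of pillar and Deiters' cells. It measured 8.75, 9.32, 11.12, 8.35 and 8.54 FPKM in *Atf6*+/+ replicates 1 to 5, and from 8.23 through a median of 10.5 to 11.35 FPKM in *Atf6*-/-. *Atf6*+/+ replicate 3, which had the least *Sox2*, had the most *Prox1* of its group, and a single *Atf6*-/- library was above it. The log2 fold change was 0.15 (SE 0.0958, adjusted p = 0.607, limma), with a fold change between 0.957 and 1.28. Markers of lymphatic endothelium, another site of *Prox1*, had a median log2 fold change of 0.0097 over 6 genes, 3 above 0 and 3 below, with none at the unadjusted p. However, 1 was higher at that p when each library was rescaled to the same sum (TPM, median 0.083), and also with replicate number in the model. These markers summed to 26.4 to 42.5 FPKM in *Atf6*+/+ and 28.8 to 37.2 FPKM in *Atf6*-/-.

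*Hes1* (NCBI gene 15205), a repressor induced by Notch, measured 14.72, 15.89, 10.55, 14.07 and 21.5 FPKM in *Atf6*+/+ replicates 1 to 5, and from 12.86 through a median of 14.4 to 15.8 FPKM in *Atf6*-/-. The *Atf6*-/- libraries lay within the *Atf6*+/+ range, whose ends were set by replicates 3 and 5. Its log2 fold change was -0.05 (SE 0.139, adjusted p = 0.922, limma). Without *Atf6*+/+ replicate 5, the highest of all, the log2 fold change was 0.080.

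*Lfng* (NCBI gene 16848) encodes lunatic fringe, a glycosyltransferase that modifies Notch receptors and alters which ligands they respond to. It measured 11.25, 10.47, 6.85, 8.92 and 9.89 FPKM in *Atf6*+/+ replicates 1 to 5, and from 8.24 to 11.4 FPKM in *Atf6*-/-, whose middle values were 9.94 and 10.06 FPKM. As for *Sox2*, *Atf6*+/+ replicate 3 was the lowest of all 11 libraries, and the log2 fold change, 0.08 (SE 0.118, adjusted p = 0.840, limma), was -0.03 when it was left out.

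*Fgfr3* (NCBI gene 14184) encodes the FGF receptor that directs pillar cell differentiation and that persists in pillar and Deiters' cells. It measured 7.93, 7.99, 5.35, 5.56 and 8.15 FPKM in *Atf6*+/+ replicates 1 to 5, and from 9.32 through a median of 10.4 to 11.91 FPKM in *Atf6*-/-. All 6 *Atf6*-/- libraries were above the highest *Atf6*+/+ library, while *Atf6*+/+ replicates 3 and 4 lay well under the other replicates of their group. The means were 7.0 ± 1.41 FPKM (SD, n = 5) and 10.4 ± 0.844 FPKM (SD, n = 6), which is a log2 fold change of 0.59 (SE 0.120, unadjusted p = 0.000334, adjusted p = 0.133, limma) and a fold change of 1.51 with a 95% confidence interval from 1.26 to 1.81. Of all genes tested it had the 39th smallest p. Genotypes did not overlap for 1.25% of the genes tested, and 0.643% did not overlap and were higher in *Atf6*-/-.

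*Ngfr* (NCBI gene 18053) encodes the p75 neurotrophin receptor, a marker of pillar and Hensen's cells that Schwann cells and other glia also express. It measured 54.51, 56.94, 60.65, 68.29 and 45.23 FPKM in *Atf6*+/+ replicates 1 to 5, and from 49.35 through a median of 54.5 to 58.89 FPKM in *Atf6*-/-. The *Atf6*-/- libraries lay inside the range of the *Atf6*+/+ libraries, whose highest was replicate 4. The log2 fold change was -0.06 (SE 0.0881, adjusted p = 0.839, limma), with a fold change between 0.840 and 1.10, and was 0.0077 without replicate 4.

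*Lgr5* (NCBI gene 14160) encodes a receptor for R-spondins that amplifies Wnt signaling and marks Deiters' and pillar cells able to proliferate in the newborn cochlea. It measured 7.06, 6.67, 7.51, 5.55 and 7.05 FPKM in *Atf6*+/+ replicates 1 to 5, and from 4.94 through a median of 6.69 to 11.79 FPKM in *Atf6*-/-. *Atf6*-/- held both the lowest and the highest library, and replicate 5 stood at the top for *Lgr5* as it did for *Fgfr3* and *Epyc*. The log2 fold change was 0.07 (SE 0.186, adjusted p = 0.912, limma), and -0.07 without *Atf6*-/- replicate 5. The coefficient of variation of *Lgr5* was 33.5% in *Atf6*-/-, with replicate 5 included, and 10.98% in *Atf6*+/+. Those of the other 7 genes were larger in *Atf6*+/+, from 12.2% to 42.7% against 6.19% to 35.9%. These spreads were not tested.

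*Epyc* (NCBI gene 13516) encodes epiphycan, a small leucine-rich proteoglycan that is secreted into cartilage and, in the inner ear, is made by supporting cells. It measured 114.72, 96.07, 49.78, 36.19 and 89.6 FPKM in *Atf6*+/+ replicates 1 to 5, and from 85.11 through a median of 126 to 218.55 FPKM in *Atf6*-/-. The same *Atf6*+/+ replicates 3 and 4 were low, 3 of the 6 *Atf6*-/- libraries were above every *Atf6*+/+ library, and the other 3, from 85.11 to 110.79 FPKM, were within the *Atf6*+/+ range. The means were 77.3 ± 33.0 FPKM (SD, n = 5) and 135 ± 48.6 FPKM (SD, n = 6), which is a log2 fold change of 0.86 (SE 0.311, unadjusted p = 0.0165, adjusted p = 0.431, limma) and a fold change of 1.82 with a 95% confidence interval from 1.14 to 2.90.

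**Figure D1:**
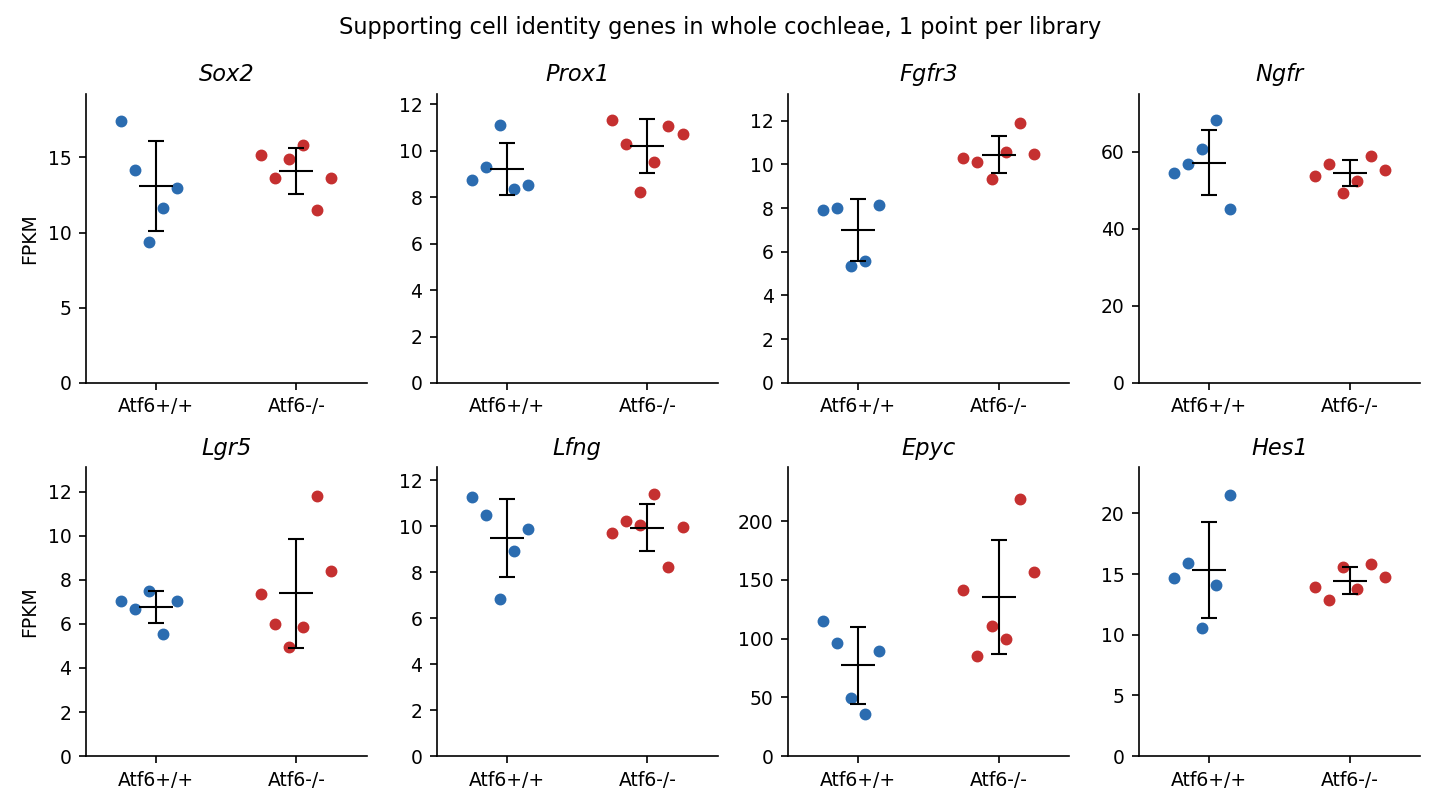
Level of each of the 8 genes in FPKM on linear axes that start at 0, with 1 point per library (5 *Atf6*+/+, blue; 6 *Atf6*-/-, red) and black bars for the mean ± SD. For *Fgfr3* the lowest *Atf6*-/- library (9.32) is above the highest *Atf6*+/+ library (8.15), and for the other 7 genes the genotypes overlap.

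As counts, 2 of the 8 genes (25%) met the unadjusted rule, both higher in *Atf6*-/-. Among all genes tested, 9.85% met this rule, 4.48% in the higher and 5.37% in the lower direction. An adjusted p under 0.05 was reached by 0 of the 8 and by 0.068% of all genes, or 11 genes. The median log2 fold change of the 8 genes was 0.10, with 6 above 0 and 2 below, against -0.013 for all genes tested, of which 45.3% were above 0. The median of the 8 was 0.064 without *Atf6*+/+ replicate 3, 0.046 with a score of bone marrow genes in the model, and 0.16 on the TPM scale. Over all genes, 1592 met the unadjusted rule, 724 higher and 868 lower. When each library was rescaled to TPM, on which all libraries have the same sum, 1828 genes met it, 1389 higher and 439 lower, and the median of all genes was 0.043. Under that scaling the log2 fold changes of *Fgfr3* and *Epyc* were 0.65 and 0.92. With the Y-linked score as a covariate they were 0.58 and 0.89, both at the unadjusted p by limma.

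Because FPKM corrects for length, the levels of the 8 genes can be set in order. The mean over all 11 libraries was 109 FPKM for *Epyc*, 55.6 for *Ngfr*, 14.9 for *Hes1*, 13.6 for *Sox2*, 9.76 for *Prox1*, 9.72 for *Lfng*, 8.88 for *Fgfr3* and 7.11 for *Lgr5*. *Ngfr* was above *Hes1* in every library, and *Sox2* above *Prox1* and *Fgfr3* above *Lgr5* in 10 of 11. *Hes1* exceeded *Sox2* in 7 libraries and *Prox1* exceeded *Lfng* in 5, so that neither pair is separated beyond the spread of the libraries. The order of *Epyc* and *Ngfr* was mixed in *Atf6*+/+, where *Epyc* was the higher in 3 of 5 libraries, but not in *Atf6*-/-, where it was the higher in 6 of 6. *Fgfr3*, at 7.0 FPKM, was below *Prox1* (9.22) and *Lfng* (9.48) in the means of *Atf6*+/+, and at 10.4 FPKM was next to both (10.2 and 9.92) in those of *Atf6*-/-. *Lfng* exceeded *Fgfr3* in 5 of 5 *Atf6*+/+ libraries and in 3 of 6 *Atf6*-/- libraries.

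Markers of other cells differed between the libraries beside *Fgfr3* and *Epyc*. *Atf6* itself was at 9.52 ± 1.11 (SD, n = 5) and 4.27 ± 0.285 FPKM (SD, n = 6) in the genotypes, without overlap. All 14 neutrophil markers were lower in *Atf6*-/- (median log2 fold change -1.48, 7 at the unadjusted p), as were all 12 erythroid markers (median -1.32, 8 at the unadjusted p) and 10 of 11 B cell markers (median -0.76, 4 at the unadjusted p). With each library left out these counts were 1 to 10 for neutrophil markers (1 without *Atf6*+/+ replicate 3 or 4), 7 to 10 for erythroid markers and 2 to 6 for B cell markers. Neutrophil markers summed to 311 to 3719 FPKM in *Atf6*+/+ and 120 to 1413 FPKM in *Atf6*-/-. The erythroid markers summed to 4841 to 46412 FPKM and 2875 to 9393 FPKM, and the B cell markers to 35.4 to 61.0 FPKM and 33.3 to 43.1 FPKM. A bone marrow score, the mean log2 value of these 3 lists, was 2.69 to 4.78 in *Atf6*+/+ and 1.32 to 3.09 in *Atf6*-/-, with the highest values in *Atf6*+/+ replicates 3 (4.78) and 4 (3.78).

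When the marrow score was added to the model, *Fgfr3* had a log2 fold change of 0.41 (SE 0.134, unadjusted p = 0.0107, adjusted p = 0.832, limma). Leaving out *Atf6*+/+ replicates 3 and 4 instead gave 0.37 (SE 0.0722, unadjusted p = 0.000398, adjusted p = 0.253, limma). *Epyc* went from 0.86 to 0.41 with the score (SE 0.353, unadjusted p = 0.264, limma) and to 0.37 without both libraries (SE 0.253, unadjusted p = 0.172, limma), and so was past the unadjusted p in neither fit. *Sox2*, *Lfng* and *Ngfr* changed sign in both fits, to values between -0.090 and 0.063. *Hes1* was at -0.26 (unadjusted p = 0.119, limma) and -0.25 (unadjusted p = 0.0542, limma).

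Marker lists of other cell types were read against the 9.85% of all genes at the unadjusted p. Of 10 genes listed for central glia (astrocytes and oligodendrocytes), all 10 were above 0 on the log2 scale (median 0.43), 1 of them, *Mobp*, at the unadjusted p. This count was 7 on the TPM scale, and from 0 to 9 with each library left out, the most without *Atf6*-/- replicate 5. The median was 0.29 with the marrow score and 0.23 without *Atf6*+/+ replicates 3 and 4. The genes summed to 331 to 524 FPKM in *Atf6*+/+ and 376 to 646 FPKM in *Atf6*-/-. A large part of this sum was *Cldn11* (means 158 and 165 FPKM), which is also on the list of stria vascularis genes, so the list is not particular to glia. None of the 10 was at 0, and *Gfap* averaged 155 and 191 FPKM. With the mean log2 value of these 10 genes in the model, *Fgfr3* was at 0.55 and *Epyc* at 0.99, and *Prox1* (0.28, limma unadjusted p = 0.00871) and *Lgr5* (0.36, limma unadjusted p = 0.0428) joined them at the unadjusted p, with limma adjusted p of 0.374 and 0.435. Hair cell genes were above 0 for 18 of 20 (median 0.23), with *Ocm* and *Slc26a5* higher (1 to 6 genes with 1 library left out, the most without *Atf6*+/+ replicate 1) and *Pvalb* lower at the unadjusted p. On the TPM scale, with the replicate block, and in 7 of the 11 fits without 1 library, 0 were lower. The median was -0.040 with the marrow score and -0.073 without *Atf6*+/+ replicates 3 and 4, with 0 genes at the unadjusted p in either fit. The list summed to 2477 to 2919 FPKM in *Atf6*+/+ and 2426 to 2876 FPKM in *Atf6*-/-, a sum made mostly of *Calb2* (means 1819 and 1798 FPKM) and *Pvalb* (729 and 621 FPKM), the 2 genes below 0. All 16 neuronal genes were below 0 (median -0.14, 2 at the unadjusted p, or 1 to 4 with 1 library left out, the most without *Atf6*+/+ replicate 5). Beside the marrow score their median was -0.054 with 0 at the unadjusted p, and without *Atf6*+/+ replicates 3 and 4 the median was -0.014. The list summed to 4022 to 5110 FPKM and 3840 to 4920 FPKM. The part of these lists in the values of the 8 genes was not tested beyond the fits given.

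**Figure D2:**
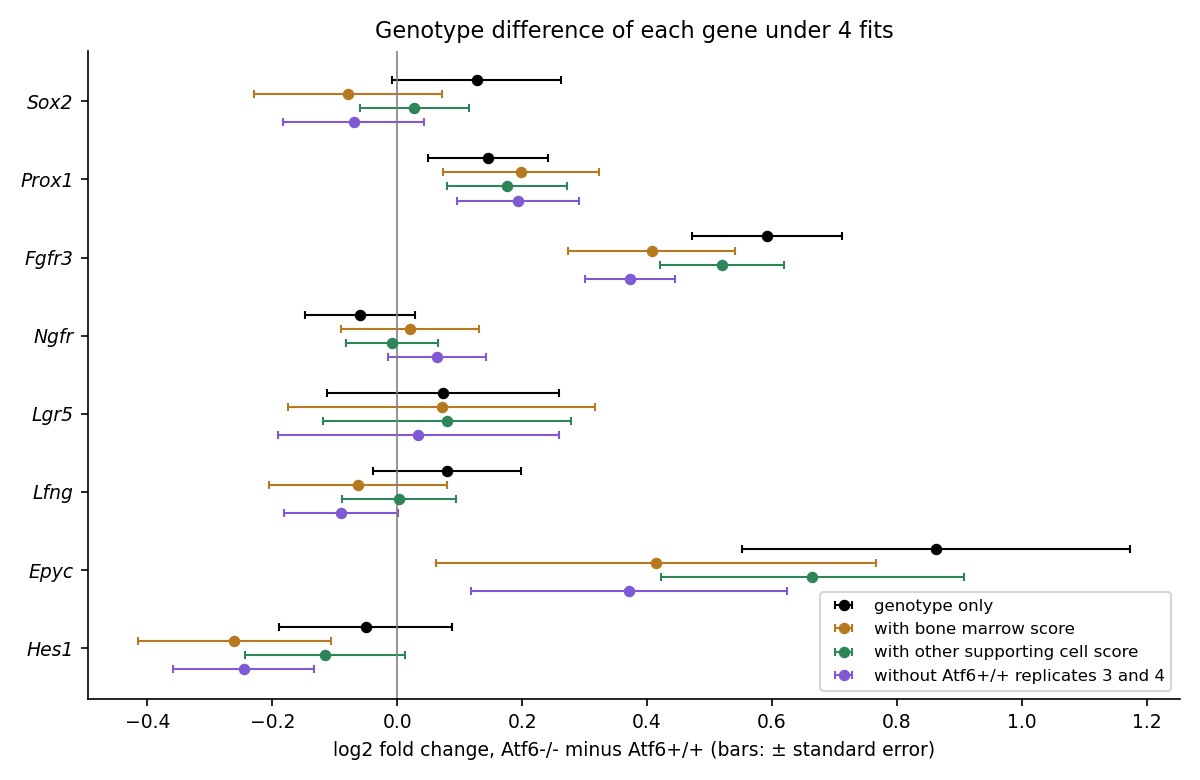
log2 fold change (*Atf6*-/- minus *Atf6*+/+) of each gene with bars of ± 1 standard error, under the model with genotype only (black), with the bone marrow score (ochre), with the score of other supporting cell genes (green) and without *Atf6*+/+ replicates 3 and 4 (violet). *Fgfr3* is above 0 in all 4 fits, from 0.37 to 0.59, while *Epyc* goes from 0.86 to 0.41 and 0.37 with the marrow score or without those libraries.

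Other genes of supporting cells were read as a list of 30, of which 29 were tested and *Fgf20* was too low. Of the 29, 19 were above 0 and 10 below, with a median log2 fold change of 0.12. At the unadjusted p, 4 were higher and 0 lower (13.8%, against 9.85% of all genes), but from 1 (without *Atf6*+/+ replicate 3 or 4, or *Atf6*-/- replicate 5 or 6) to 10 (without *Atf6*+/+ replicate 1) were higher with 1 library left out. The 4 genes were *Kcnj10*, the potassium channel that supporting cells and the stria use to take up and pass on potassium (0.37), *Heyl* (0.38), *Sox9* (0.31) and the Notch ligand *Jag1* (0.21), with adjusted p from 0.403 to 0.505. by limma The connexin gene *Gjb2*, which joins supporting cells by gap junctions, averaged 195 and 229 FPKM, and the list summed to 1627 to 3027 FPKM in *Atf6*+/+ and 2134 to 3495 FPKM in *Atf6*-/-. Beside the marrow score the median was -0.011 and 0 genes were at the unadjusted p. With the mean log2 value of these 29 genes in the model in its place, *Fgfr3* was at 0.52 (limma unadjusted p = 0.000235, adjusted p = 0.111) and *Epyc* at 0.66 (limma unadjusted p = 0.0187, adjusted p = 0.523), while *Sox2*, *Lfng* and *Ngfr* were within 0.03 of 0.

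The Notch pathway, in which *Lfng* and *Hes1* act, had 7 of its other 32 genes higher and 1 lower at the unadjusted p (25%, against 9.85% of all genes), but 1 higher and 0 lower with the marrow score in the model. The 7 were 2 with the replicate block and, with each library left out, from 1 (without *Atf6*+/+ replicate 3) to 9 (without *Atf6*-/- replicate 2). The list's median was 0.033, and 19 genes were above 0. By smallest p the named genes were the receptor *Notch4* (0.27), which is known from endothelium, the fringe *Rfng* (0.14), the target genes *Heyl* (0.38) and *Hey1* (0.15), and the fringe *Mfng* (-0.27), with adjusted p from 0.462 to 0.491. by limma The fringes thus lay on both sides of *Lfng*. *Rfng* averaged 48.5 ± 3.29 FPKM (SD, n = 5) and 53.5 ± 3.41 FPKM (SD, n = 6), and *Mfng* 3.74 ± 0.583 and 3.08 ± 0.398 FPKM. Among relatives of *Hes1*, *Hes5* had a log2 fold change of -0.40 at a level of 0.758 and 0.533 FPKM, and *Hey2* -0.09 at 18.2 and 17.1 FPKM (adjusted p = 0.602 and 0.701 by limma).

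In the FGF pathway, 0 of the 21 other genes tested were at the unadjusted p by limma, and the median was 0.013. The smallest p was that of the ligand *Fgf1*, at 175 ± 18.5 FPKM (SD, n = 5) and 159 ± 7.41 FPKM (SD, n = 6), which is a log2 fold change of -0.13 (adjusted p = 0.5255 by limma). The sister receptors *Fgfr1* and *Fgfr2* averaged 96.1 and 19.0 FPKM in *Atf6*+/+ and 102 and 19.1 FPKM in *Atf6*-/-, with log2 fold changes of 0.09 and 0.01 (standard errors 0.0709 and 0.0804, adjusted p = 0.652 and 0.968 by limma). *Fgfr4* and *Fgfrl1* were at 0.25 and 0.21 (adjusted p = 0.567 and 0.596 by limma). *Fgf8*, the ligand from inner hair cells, and *Fgf20* were under the filter of 0.1 FPKM.

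In the Wnt and R-spondin pathway, 2 of 37 genes were higher at the unadjusted p and 0 lower (5.41%), with a median of 0.052, and from 1 to 7 (without *Atf6*-/- replicate 2) were higher with 1 library left out. They were *Notum*, a secreted enzyme that inactivates Wnt proteins (0.48, adjusted p = 0.399 by limma), and the receptor *Fzd9* (0.42, adjusted p = 0.481 by limma). The other receptors for R-spondins, *Lgr4* and *Lgr6*, had log2 fold changes of -0.01 and 0.03 at levels of 9.05 and 2.09 FPKM in *Atf6*+/+. In the neurotrophin pathway of *Ngfr*, 0 of 15 genes were at the unadjusted p by limma (median 0.032). *Bex3*, which encodes a protein that binds p75, had the smallest p (-0.13, adjusted p = 0.505 by limma), and the receptors *Ntrk2* and *Ntrk3* were at 0.08 and 0.02.

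Of the 16 small leucine-rich proteoglycans related to *Epyc*, 6 were above 0 and 10 below, with a median of -0.07, and 1 was lower at the unadjusted p. The median was -0.13 without *Atf6*+/+ replicate 1 and -0.016 with the replicate block. With 1 library left out, from 0 (without *Atf6*+/+ replicate 1, 2, 4 or 5, among others) to 2 were lower, and without *Atf6*+/+ replicate 5 or *Atf6*-/- replicate 5 instead 1 and 2 were higher. The 1 gene was decorin, *Dcn*, a proteoglycan of connective tissue, at 454 ± 63.1 FPKM (SD, n = 5) and 385 ± 39.2 FPKM (SD, n = 6), which is a log2 fold change of -0.23 (adjusted p = 0.505 by limma). Lumican, *Lum*, and osteoglycin, *Ogn*, were at -0.07 and 0.01. Among 24 transcription factors of otic cell fates, 20 were above 0 (median 0.14) and 3 were higher at the unadjusted p, namely *Gata3* (0.47), *Nr2f1* (0.30) and *Sox9* (0.31), with adjusted p from 0.415 to 0.494. by limma With 1 library left out the 3 were 2 to 6, the most without *Atf6*+/+ replicate 1. *Sox21*, the other relative of *Sox2* examined, was at 0.31 (adjusted p = 0.649 by limma). Beside the marrow score the median of this list was -0.0031 and 0 genes were at the unadjusted p.

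**Figure D3:**
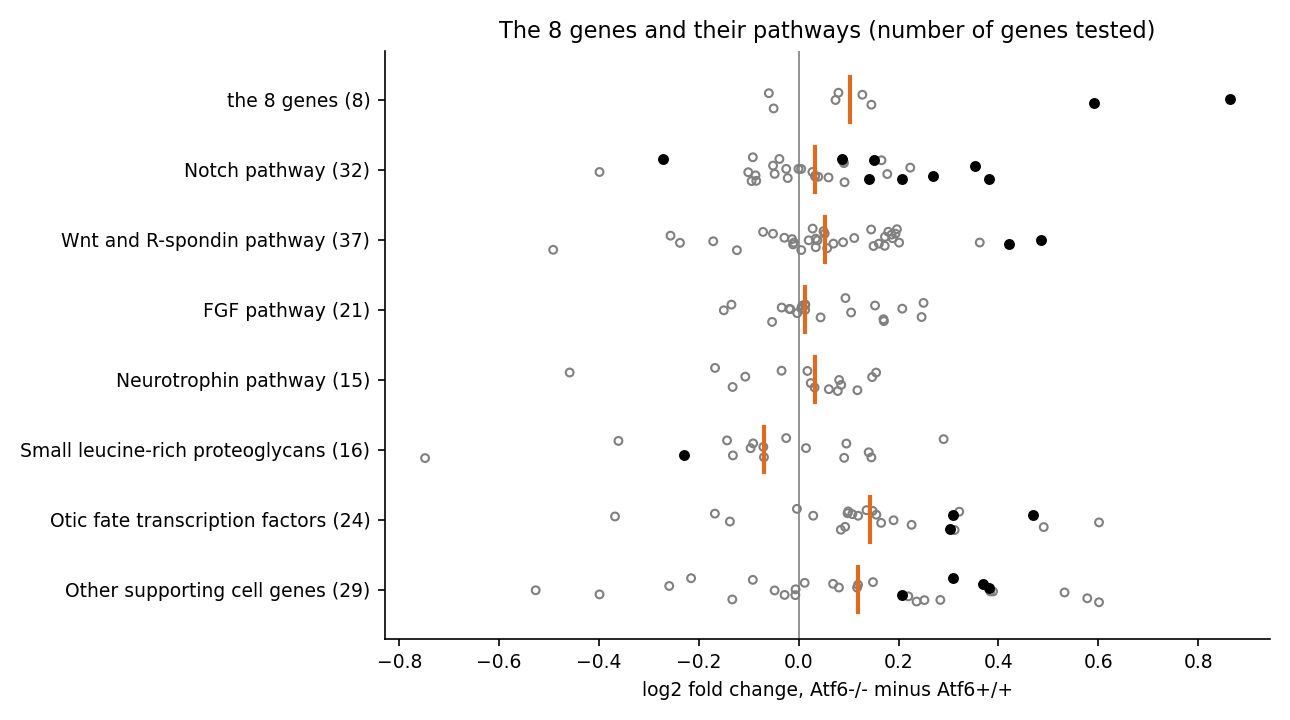
log2 fold change (*Atf6*-/- minus *Atf6*+/+) of each tested gene in the 8-gene set and in 7 lists of related genes, 1 circle per gene, filled where the gene met the unadjusted rule, and an orange bar at the median. The filled circles of the 8 genes are *Fgfr3* at 0.59 and *Epyc* at 0.86, and the medians of the 7 lists lie between -0.07 and 0.14.

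The 8 genes did not vary together as 1 group from library to library. Pearson correlations of log2 values were computed over the 11 libraries after the mean of each genotype was removed, and are given as a description, since all genes of a library share its cell content and its scaling. Of 28 pairs, 17 were above 0 and 11 below, from -0.66 to 0.94, with 8 above 0.5 and 4 below -0.5. The closest pair was *Sox2* and *Lfng* (r = 0.94, Spearman rho = 0.88, and r = 0.87 without the 2 libraries farthest from the median of *Sox2*). In each pair these 2 libraries were picked by 1 of its genes only. They therefore differ between pairs, and extremes of the other gene can stay in. *Fgfr3* and *Epyc* formed another (r = 0.84, rho = 0.80, and r = 0.76 without the 2 farthest), and *Hes1* ran with both. With *Fgfr3* it had r = 0.71 (rho = 0.69, r = 0.50 without the 2 farthest, 0.78 within *Atf6*+/+ and 0.21 within *Atf6*-/-). With *Epyc* it had r = 0.53 (rho = 0.76, and r = 0.53, 0.52 and 0.71 in the same order). *Lgr5* ran with *Prox1* (r = 0.68, rho = 0.72, and r = 0.61) and with *Epyc* (r = 0.66, rho = 0.60, and r = 0.64). *Prox1* was opposed to *Lfng* (r = -0.60, rho = -0.46, and r = -0.51) and *Ngfr* to *Hes1* (r = -0.66, rho = -0.48, and r = -0.41). Between the pairs, *Sox2* and *Fgfr3* had r = 0.53 over all libraries, but 0.05 without the 2 farthest, *Atf6*+/+ replicates 1 and 3. Their r was 0.82 within the *Atf6*+/+ libraries and -0.70 within the 6 *Atf6*-/- libraries. *Lfng* and *Epyc* had r = 0.23 over all libraries and 0.54 without the 2 farthest, with 0.74 within *Atf6*+/+ and -0.83 within *Atf6*-/-. Both pairs thus had opposite signs in the genotypes. *Sox2* and *Prox1* went from -0.52 to -0.25, and *Lgr5* and *Lfng* from -0.44 to -0.28, without the 2 farthest libraries.

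**Figure D4:**
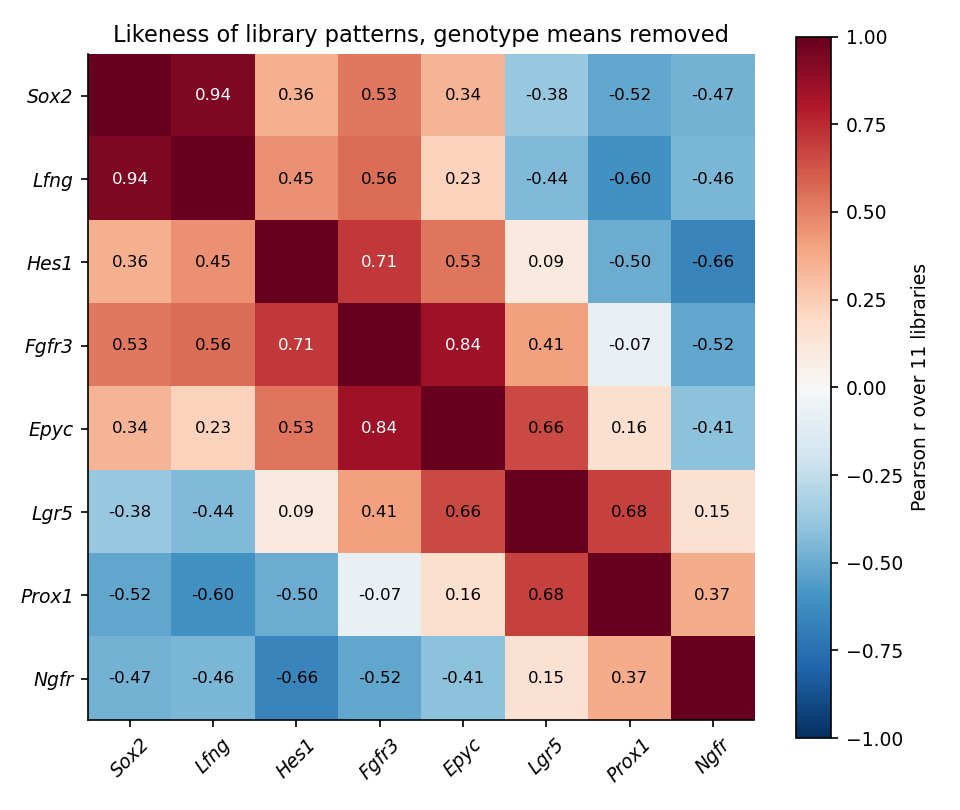
Pearson r between each pair of the 8 genes over 11 libraries, on log2 values with the genotype means removed, from -1 (blue) to 1 (red). *Sox2* and *Lfng* (0.94) form one block and *Fgfr3*, *Epyc* and *Hes1* another, and *Ngfr*, *Prox1* and *Lgr5* have r from -0.60 to -0.38 with *Sox2* and *Lfng*.

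The 8 genes were also set beside hair cell genes in the same way. Here the 2 farthest libraries were picked by the hair cell gene or by the score compared. With the mean log2 value of the hair cell list, r was 0.86 for *Sox2*, 0.71 for *Lfng*, 0.70 for *Epyc* and 0.64 for *Fgfr3*. It was 0.37 for *Hes1*, 0.01 for *Lgr5*, -0.27 for *Prox1* and -0.49 for *Ngfr*. Without the 2 farthest libraries these 8 values were 0.67, 0.42, 0.58, 0.44, 0.26, 0.04, 0.07 and -0.51. *Sox2* followed *Pou4f3*, a hair cell transcription factor (r = 0.95, rho = 0.85, and 0.83 without the 2 farthest libraries), and *Otof*, which encodes otoferlin of the hair cell synapse (r = 0.94, rho = 0.92, and 0.90). *Lfng* had r = 0.87 with each, but 0.65 with *Pou4f3* and 0.81 with *Otof* without the 2 farthest libraries. With *Slc26a5*, which encodes prestin of outer hair cells, *Sox2* had r = 0.14 (rho = 0.16, and 0.45 without the 2 farthest). *Epyc* followed *Slc26a5* more closely (r = 0.90, rho = 0.90, and 0.87), as did *Lgr5* (r = 0.77, rho = 0.70, and 0.68), at a *Slc26a5* level of only 0.24 to 4.11 FPKM. *Fgfr3* had r = 0.59 with *Slc26a5*, 0.58 with *Pou4f3* and 0.52 with *Otof*, or 0.62, 0.15 and 0.20 without the 2 farthest libraries. With the mean of the other supporting cell genes, *Sox2* had r = 0.83 (0.77 without the 2 farthest libraries) and *Lfng* 0.74 (0.65). *Epyc*, *Fgfr3* and *Hes1* had r = 0.69, 0.68 and 0.52 (rho = 0.65, 0.64 and 0.58). Without the 2 farthest libraries their r was 0.44, 0.28 and 0.22, so the linear relation was weaker without them. *Lgr5* (-0.04), *Prox1* (-0.37) and *Ngfr* (-0.66) did not run with it. With the central glia score, r was 0.80 for *Lfng*, 0.67 for *Sox2*, -0.71 for *Prox1* and -0.74 for *Lgr5*, and without the 2 farthest libraries 0.30, 0.022, -0.51 and -0.43. With the marrow score, r was -0.58 for *Fgfr3*, -0.56 for *Sox2*, -0.56 for *Hes1* and -0.52 for *Epyc*, and without the 2 farthest -0.52, -0.28, -0.45 and -0.51.

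The genes whose pattern was most like each of the 8 were sought among the 13611 genes that averaged 1 FPKM or more, by the same r over 11 libraries. *Epyc* had the closest, *Pgm5*, *Ildr1* and *Slc26a4*, each at r = 0.98. For *Sox2* they were *Kncn*, *Ccdc68* and *Gipc3* (each 0.95), and for *Lfng* *Cspg5* (0.96), *Plekhh1* (0.95) and *Fzd10* (0.95). *Fgfr3* was followed by *Cdc42ep4* (0.94), *Chmp4c* (0.94) and *Itgbl1* (0.93). *Prox1* was followed by *Eif4g3* (0.97), *Heatr5a* (0.97) and *Pdzd2* (0.96), and *Lgr5* by *Arhgap31*, *Ebf3* and *Epb41* (each 0.94). The closest to *Ngfr* were *Zswim4* (0.95), *Lingo1* (0.95) and *Ntng2* (0.93), and those to *Hes1* included *Snx17* (0.95) and *Il11ra1* (0.93). Among so many genes some follow any pattern of 11 values closely.

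**Figure D5:**
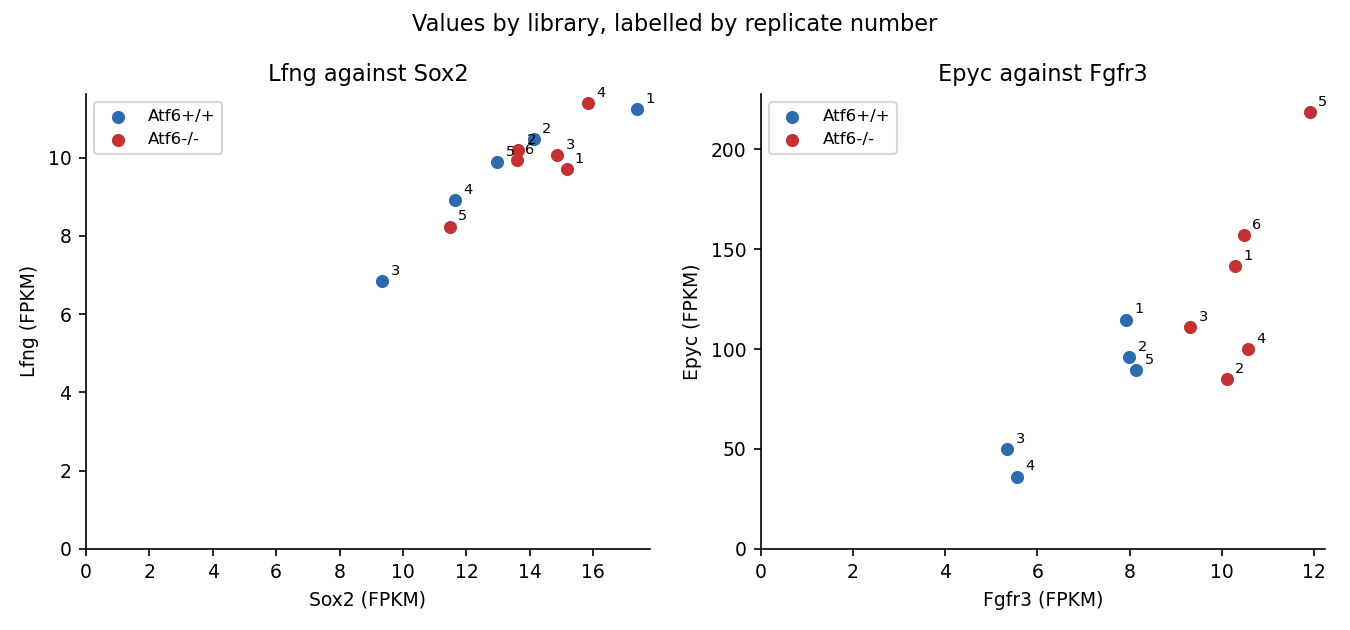
Level in FPKM of *Lfng* against *Sox2* (left) and of *Epyc* against *Fgfr3* (right) in each library, on linear axes from 0, with *Atf6*+/+ in blue, *Atf6*-/- in red and replicate numbers beside the points. Libraries of both genotypes with more *Sox2* have more *Lfng* (r = 0.94), and for *Fgfr3* the *Atf6*-/- libraries are all to the right of 8.15 FPKM.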

How the data were processed

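Each library held the mRNA of an individual whole cochlea, extracted with RNeasy, and was prepared with strand information and sequenced on DNBSEQ instruments. Littermates of both sexes were used, and the mean log2 value of 4 Y-linked genes was above 0 in 4 of 5 *Atf6*+/+ and 3 of 6 *Atf6*-/- libraries. The authors aligned the reads with HISAT2 2.0.4 to GRCm39 and estimated levels with RSEM (version 1.2.12 in the submitters' processing notes, another in their methods). The deposited values are FPKM with 2 decimals, in 1 table per genotype, with NCBI gene identifiers. No counts entered the analysis. Only the nominal depth in the study's methods is known, not the reads of each library or the counting error behind each value. The authors' own test was DESeq2 1.4.5, which needs counts.

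FPKM tables were joined by gene identifier, 0.1 was added and log2 taken. Genes with a mean of 0.1 FPKM or more (16169) were fitted with limma 3.58.1 (R 4.3.3), with genotype as the term and a mean-variance trend, two-sided, and p-values were adjusted by Benjamini-Hochberg over all of them. The p-values set the genotype difference against the spread between these cochleae, each taken as independent. The labels do not say which mouse a cochlea came from, so the number of mice behind the libraries is not known. Of the per-sample columns, 0 were left out. A second count used an unadjusted limma p up to 0.05 with an absolute log2 fold change over 0.05, a rule modelled on the thresholds of the study, which used its own p-values and a fold change over 0.05.

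The 8 genes, the related lists, the markers and the tests were chosen with earlier results of these data known. Named genes were the 8, up to 5 genes at the unadjusted p per list (the one of smallest p where none was), closest relatives, and the 3 genes of most similar pattern. A few genes that the rule names are not reported here. *Gfap*, *Gjb2*, *Calb2*, *Fgfr4* and *Fgfrl1* were named after their values were seen. Alternatives were pseudocounts of 1 and 0.01, other filters, scaling to TPM or by median of ratios, robust variance, a replicate block, marrow and Y-linked scores as covariates, and leaving out each library. Fits with the score of other supporting cell genes, with the central glia score, and without both *Atf6*+/+ libraries of highest marrow score were added after the data were seen. Tested on simulated data for this comparison (16169 genes), the fit recovered 74% of 200 genes changed by 0.5 and 93% of 200 changed by 1 on the log2 scale. The changed genes were drawn from those with a mean log2 value above 0. The simulated noise was independent from gene to gene, while real genes of a library share its cell content. These rates therefore do not give the power of the test in the real libraries. Upstream sequences came from a RefSeq table of GRCm38.p6. Python 3.11.15 with pandas 2.3.3, scipy 1.17.1 and matplotlib 3.10.9 served for the other steps.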

Additional observations from a re-analysis of the deposited data

Results flagged for a closer look

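In groups of this size a library was set apart when its gap to the nearest other library, divided by the range of the group, passed Dixon's 95% critical value. The rule was applied to 68 groups (34 genes in each genotype), chance sets apart about 1 in 20, and 4 were found, with 0 among the 16 groups of the 8 supporting cell genes. All 4 belong to relatives of those genes. *Fgfr2* was at 22.91 FPKM in *Atf6*+/+ replicate 5, against 16.95 to 18.6 FPKM in the other *Atf6*+/+ libraries. *Lum* was at 77.39 FPKM in the same library, against 35.17 to 43.58 FPKM. *Ogn* was at 73.51 FPKM in *Atf6*+/+ replicate 4, against 85.74 to 89.83 FPKM. *Hey2* was at 20.61 FPKM in *Atf6*-/- replicate 5, the library with the most *Fgfr3*, *Lgr5* and *Epyc*, against 16.1 to 16.65 FPKM in the other *Atf6*-/- libraries.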

How the results depend on the processing

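*Fgfr3* was at the unadjusted p in all 24 alternatives and *Epyc* in 22, and 0 of the 8 genes had an adjusted p under 0.05 in any. The exceptions for *Epyc* were the marrow score and the fit without *Atf6*+/+ replicates 3 and 4, where 1 gene was at the unadjusted p in place of 2, and with the central glia score there were 4. With the marrow score, without both libraries and with the central glia score, log2 fold changes turned to -0.079, -0.070 and -0.059 for *Sox2*, to -0.063, -0.090 and -0.11 for *Lfng*, and to 0.021, 0.063 and 0.011 for *Ngfr*. *Hes1* was at 0.0064 on the TPM scale. The cause of these turns was not tested. With each library left out, the ranges were 0.014 (without *Atf6*+/+ replicate 3) to 0.24 (without *Atf6*+/+ replicate 1) for *Sox2*, -0.14 to 0.0077 for *Ngfr*, -0.071 to 0.18 for *Lgr5*, -0.031 to 0.15 for *Lfng*, -0.18 to 0.080 for *Hes1*, 0.50 to 0.65 for *Fgfr3* and 0.62 to 1.04 for *Epyc*. *Prox1* was also at the unadjusted p without *Atf6*+/+ replicate 3 (0.21) or *Atf6*-/- replicate 3 (0.21). Over all genes, 11 had an adjusted p under 0.05, against 6 with the marrow score, 7 with the central glia score and 4 with the replicate block. At the unadjusted p were 1592, against 885 with the marrow score and 1001 without both libraries. The replicate block kept *Fgfr3* at 0.59 and *Epyc* at 0.81. The replicate numbers are only numbers. Libraries with the same number had correlations of 0.095, -0.12, -0.21, 0.12 and -0.040 in their deviations, and 1 of 5 *Atf6*+/+ libraries correlated best with its own number. The reads of each library are not known and could not be used to weigh genes.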

Other observations

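Other cell types of the cochlea were read by their marker lists in the same fit. Of 9 genes listed for spiral ligament fibrocytes, 8 were above 0 on the log2 scale (median 0.30, 1 at the unadjusted p, or 0 to 4 with 1 library left out, the most without *Atf6*-/- replicate 2). The gene below 0, *Ibsp* (-0.55), is also on the list of bone genes. The 9 genes summed to 3346 to 4969 FPKM in *Atf6*+/+ and 4196 to 6395 FPKM in *Atf6*-/-. Their median was 0.19 without *Atf6*+/+ replicate 3 and -0.013 without replicates 3 and 4. *Slc26a4*, which encodes pendrin and was put on this list, was among the 3 genes closest in pattern to *Epyc*. Whether its RNA came from fibrocytes was not tested. Stria vascularis genes had a median of 0.081 with 8 of 11 above 0 and none at the unadjusted p, but -0.45 without *Atf6*+/+ replicate 4 and -0.59 without replicates 3 and 4. Cartilage genes had a median of 0.18 with 7 of 10 above 0 (0.074 without *Atf6*+/+ replicate 3), and 1 of them, *Acan*, was higher at the unadjusted p (0.35). Bone genes had a median of -0.31 with 13 of 14 below 0 (from -0.47 without *Atf6*+/+ replicate 1 to -0.11 without *Atf6*+/+ replicate 5). Of 16 Schwann cell and myelin genes, which share the tissue with *Ngfr*, 10 were above 0 (median 0.029), and *Cnp* and *Mag* were among those higher at the unadjusted p (0.13 and 0.33). With the marrow score in the model, the medians were 0.040 for fibrocytes, -0.099 for the stria, 0.13 for cartilage, 0.035 for bone and 0.088 for Schwann cells.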
